A study of Mus musculus with 7 samples.

Results

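Cytosolic ribosomal protein genes were followed through 7 lists of open-chromatin peaks from mouse embryonic face and postnatal teeth. They were chosen by symbol alone, as protein-coding genes named Rpl or Rps with a number and an optional a, x or l, or Rplp with a number. The rule found 80 genes among the 21883 protein-coding genes on placed chromosomes of RefSeq's mouse assembly GRCm38.p6, 50 for proteins of the large ribosomal subunit and 30 for the small one. No measured value entered the choice.

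Open chromatin was measured by Omni-ATAC, a form of ATAC-seq in which a transposase cuts DNA that nucleosomes leave free. First pharyngeal arch ectoderm, which later forms jaw skin and tooth epithelium, came from embryos of day 11.5 and was peeled from the mesenchyme after Dispase II (2 libraries, replicates 1 and 2). Sox2-positive cells came from the labial cervical loop, the growing end of the lower incisor, at postnatal day 2 and were sorted by FACS (2 libraries, replicates 1 and 2), and are called the sorted cells below. Their mice carried Sox2-GFP, with GFP under the endogenous Sox2 promoter, so the group holds whatever cells were bright for that reporter. Lower incisor, lower first molar and upper first molar of postnatal day 2, dissected as whole teeth, gave 1 library each. No treatment, mutation or strain is named for any group, and neither the sex of the animals nor the number pooled is given. Nothing says that replicates came from separate animals, so the spread between them may be technical. With 2 libraries against 2 no exact test can reach the usual threshold, and the values below are descriptions without p-values.

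Ribosomal proteins are needed by every growing cell in nearly equal amounts, and their promoters are classed with those of housekeeping genes. Most of these genes are short, begin transcription at a C within a run of pyrimidines (the start of the TOP element, by which translation of the mRNA follows growth signals), carry CpG-rich promoters, and often hold small nucleolar RNAs in their introns. A few have paralogues of narrow expression: Rpl3l is known from striated muscle, and Rpl10l and Rpl39l from the male germ line. The wider genome holds many processed pseudogenes, which are copies of the mRNA without the promoter.

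The authors called peaks in each library separately. A gene was counted as having a gene-end peak where a peak summit lay within 1 kb of either end of its annotated span, and the peak with the highest deposited signal stood for the gene. Each peak was placed in its own list by the deposited −log10 p, and its percentile is the share of that list with a weaker p-value. For 60 of the 80 genes RefSeq's promoter table (GRCm38.p6) also gives a transcription start with its strand, and for these a peak at the start was sought in the same way. Neither signal nor −log10 p was normalised between libraries, and the peak lists hold no read counts, so that the depth behind each list is unknown.

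The lists held 82427 and 50748 placed peaks in ectoderm, 42558 and 38973 for the sorted cells, 63003 in lower incisor, 69960 in lower molar and 68266 in upper molar. Among marker genes, Sox2 had a gene-end peak in all 7 libraries, so its presence does not tell the groups apart. Of 5 epithelial genes (Cdh1, Epcam, Krt5, Krt14, Trp63) 3 or 4 had one in each library. Trp63 had none in any, Krt14 none in ectoderm replicate 2 and Epcam none in lower incisor. Of 5 mesenchymal genes (Prrx1, Twist1, Pdgfra, Col1a1, Col1a2) 3 or 4 had one in ectoderm, 5 and 4 for the sorted cells and 4 in each whole tooth. Of 4 blood and vessel genes (Ptprc, Cd34, Pecam1, Cdh5) 0 to 2 had one, and Ptprc and Pecam1 had none in any library. Over all protein-coding genes the share with a gene-end peak was 53.3% to 63.1%. These marker counts were similar across the groups and do not check the labels. A peak at a gene end does not show that the gene is transcribed, and the part of admixed cells in the values below was not tested.

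Promoter windows of 6 genes are given here because they mark the extremes of the results. Rpl37 had the highest-ranked peak, Rps4x the lowest-ranked one among genes found in all 7 libraries, and Rps2 a strong peak that the gene-end rule missed. Rpl39, with a peak in every library, stands beside its paralogue Rpl39l, which had none. Rpl10l, a paralogue whose counterpart is not shown, had none either. Each window runs 5′ to 3′ along the gene's strand from 150 bases before the annotated start and ends 20 bases into the transcript. Capitals mark matches, on either strand, to short motifs. The ETS core was searched as CCGGAA. A match of the YY1 type was AAGATGG, and one of the SP type was GGGCGG. The TATA type was TATAAA. The E-box was searched as CACGTG. The motifs were searched independently, so that matches could overlap, and a match is a description of the letters and not a bound site. The sequences are RefSeq's, on GRCm38.p6, at chr15:5116463-5116632 on the plus strand for Rpl37, chrX:102189372-102189541 on the minus strand for Rps4x, chr17:24719913-24720082 on the plus strand for Rps2, chrX:37085203-37085372 on the minus strand for Rpl39, chr16:10170078-10170247 on the plus strand for Rpl39l and chr12:66284382-66284551 on the minus strand for Rpl10l.
Rpl37: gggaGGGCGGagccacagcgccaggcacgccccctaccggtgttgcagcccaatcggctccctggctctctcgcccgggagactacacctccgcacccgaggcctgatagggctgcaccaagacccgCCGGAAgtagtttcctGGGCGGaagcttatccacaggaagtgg
Rps4x: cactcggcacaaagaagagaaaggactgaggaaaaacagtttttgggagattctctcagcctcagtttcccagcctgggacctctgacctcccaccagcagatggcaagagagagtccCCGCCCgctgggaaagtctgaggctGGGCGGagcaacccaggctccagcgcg
Rps2: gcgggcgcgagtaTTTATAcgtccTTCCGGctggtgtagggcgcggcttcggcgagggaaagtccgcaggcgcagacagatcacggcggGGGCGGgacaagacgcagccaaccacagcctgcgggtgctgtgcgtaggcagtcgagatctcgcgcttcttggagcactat
Rpl39: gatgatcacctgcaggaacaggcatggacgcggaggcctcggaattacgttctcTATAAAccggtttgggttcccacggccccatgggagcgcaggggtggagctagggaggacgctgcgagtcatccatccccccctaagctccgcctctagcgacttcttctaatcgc
Rpl39l: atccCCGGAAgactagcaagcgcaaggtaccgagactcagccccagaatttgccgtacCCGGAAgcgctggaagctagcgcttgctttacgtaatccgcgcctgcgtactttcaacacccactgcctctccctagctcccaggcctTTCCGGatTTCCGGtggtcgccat
Rpl10l: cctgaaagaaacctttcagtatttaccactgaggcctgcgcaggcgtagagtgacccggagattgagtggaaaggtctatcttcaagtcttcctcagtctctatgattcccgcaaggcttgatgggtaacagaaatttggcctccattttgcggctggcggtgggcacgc

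Of these windows, that of Rpl37 held an ETS core beginning 23 bases before the start, between SP-type matches at −146 and −7. Rps4x had SP-type matches at −32 and −7 and no ETS core. Rps2 held a TATA-type match at −137, an ETS core at −126 and an SP-type match at −61. Rpl39 had a TATA-type match at −96 only. Rpl39l, with no peak in any library, held 4 ETS cores, at −146, −92, −4 and 4, more than any other window shown. Rpl10l held none of the motifs within these 170 bases.

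Nearly all ribosomal protein genes had open chromatin at a gene end in every library. Gene-end peaks were found for 73 of 80 genes in both ectoderm libraries, for 73 and 72 for the sorted cells, for 74 in lower incisor and for 73 in each molar. Over all protein-coding genes the share was 63.1% and 60.0% in ectoderm, 54.6% and 53.3% for the sorted cells, 57.0% in lower incisor, 58.5% in lower molar and 58.3% in upper molar. The background thus ran from 53.3% to 63.1% while the ribosomal count stayed between 72 and 74 genes. Peaks in all 7 libraries were found for 72 of the 80 genes, against 48.8% of all genes. Peaks in no library were found for 6 genes (7.5%), against 32.9% of all.

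Other housekeeping families were present about as often. Mitochondrial ribosomal proteins, which are built in the cytosol for the organelle's own ribosome, had gene-end peaks for 71 to 76 of 78 genes. Initiation and elongation factors of translation had them for 63 to 67 of 71 genes, and subunits of the proteasome, the protease that degrades ubiquitin-tagged proteins, for 35 to 37 of 40. The presence of a peak therefore did not set the cytosolic ribosomal genes apart from these lists.

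At annotated starts, every library held a peak for 55 of the 60 genes with a start entry (91.7%). The same was true of 52.5% of the 17491 genes with an entry. Rpl41 had a start peak in 3 libraries, at the 91.6 to 95.1 percentile. In the other 4 its gene end lay under a single peak 2312 to 2570 bp wide whose summit was nearer the start of its neighbour Zc3h10. The 4 genes without a start peak in any library were Rpl10l, Rpl39l, Rpl3l and Rpl32l.

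The genes without a peak at an end or a start in any library were Rpl10l and Rpl39l, known for narrow expression, and Rpl32l. Rpl10l lay 55.0 kb or more from the nearest summit in each library, and Rpl32l lay 5.55 kb or more away from it. Rpl39l had its nearest summit 17.9 kb or more from a gene end, although its window held the ETS cores shown above. Rpl3l did have a gene-end peak at the 87.8 to 94.7 percentile, but the summit lay 3782 to 3861 bp downstream of its own start and 47 to 126 bp from the start of the neighbouring gene Msrb1. By contrast Rpl39, the housekeeping counterpart of Rpl39l, had percentiles of 79.4 and 84.9 in ectoderm, 91.8 and 73.1 for the sorted cells, 78.2 in lower incisor, 83.2 in lower molar and 86.3 in upper molar.

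For 3 other genes the annotated span reaches past the listed start, and the gene-end rule found nothing although each had a start peak in all 7 libraries. Rps2, of the mRNA entry region of the small subunit, had start peaks at the 95.6 and 95.4 percentile in ectoderm, 95.9 and 96.3 for the sorted cells, 97.3 in lower incisor, 97.4 in lower molar and 97.2 in upper molar. Both ectoderm libraries were the lowest of the 7, by a small margin. Rps27l, a paralogue known as a p53 target, had start peaks between the 85.2 and 91.4 percentile. Rpl38, which is known for a role in the translation of Hox mRNAs, had start peaks between the 74.7 and 85.6 percentile with summits 505 to 570 bp after the annotated start, which itself lay 762 bp inside the span.

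The remaining genes that missed the rule in some library were Rpl17 and Rpl22. Rpl17, a protein at the exit of the peptide tunnel, had a gene-end peak only in lower incisor, 315 bp wide and at the 62.5 percentile. Inside the gene, 1532 to 1560 bp from the nearer end, it had a wider peak in all 7 libraries, at the 66.5 to 81.0 percentile. Rpl22, a protein that is dispensable for translation in most cells, had its gene-end peak at the far end of the gene, 7432 to 7450 bp after the start, in 6 libraries and none in Sox2-positive replicate 2. Its start peak was at the 87.1 and 81.6 percentile in ectoderm, 93.5 and 93.9 for the sorted cells, 95.2 in lower incisor, 92.7 in lower molar and 92.8 in upper molar, so that both ectoderm libraries were below the 5 others. Counting either an end or an annotated start, 76 genes had a peak in all 7 libraries and 3 (Rpl10l, Rpl32l, Rpl39l) had none in any.

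**Figure D1:**
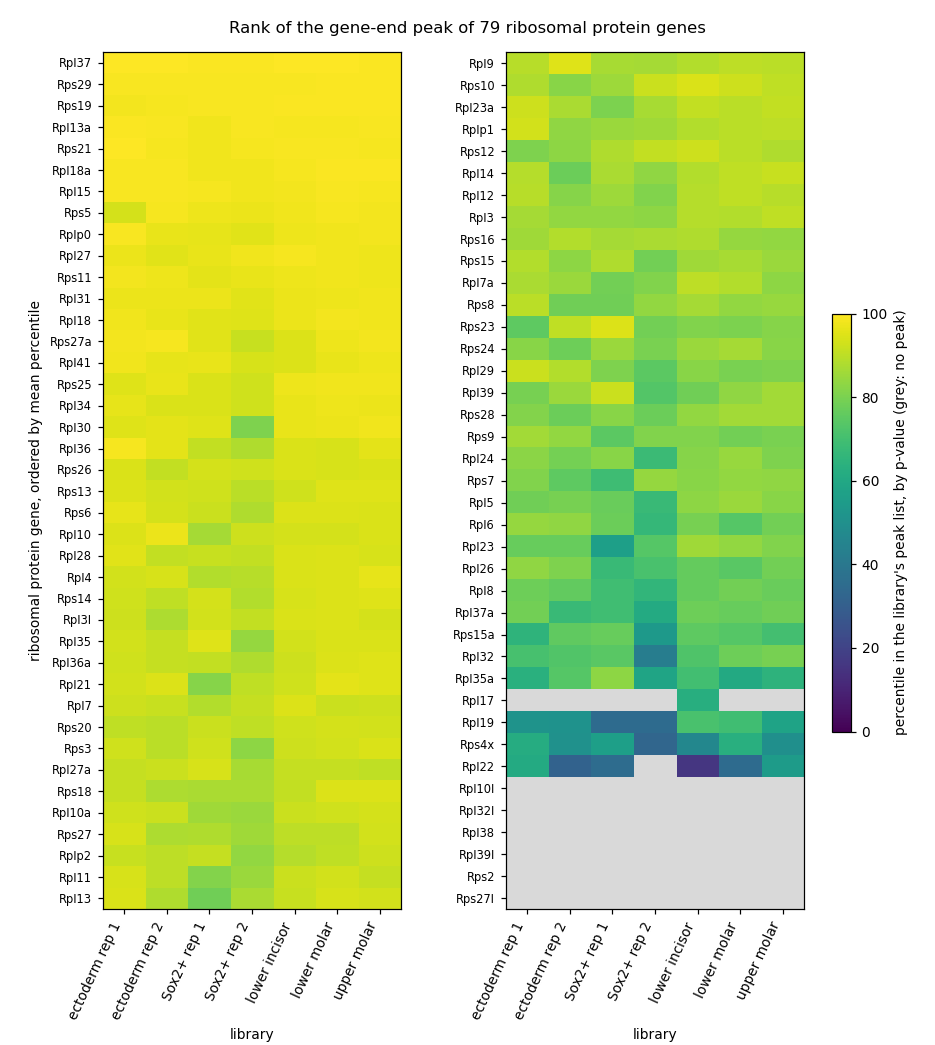
Heat map of the percentile of each gene-end peak in its own list for 79 of the 80 ribosomal protein genes (rows, ordered by mean) in the 7 libraries (columns); grey marks no gene-end peak. Rpl37 stands at the top, with 99.4 or more in every library, and 6 rows at the foot have no gene-end peak in any library.

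The peaks of ribosomal protein genes ranked high within each list. Their median percentile was 92.3 and 89.6 in ectoderm, 88.0 and 86.9 for the sorted cells, 91.9 in lower incisor, 92.4 in lower molar and 92.5 in upper molar. Gene-end peaks of all protein-coding genes had medians of 86.2, 82.7, 82.1, 81.1, 86.0, 85.6 and 85.4 in the same order, below the ribosomal median in each library. Translation factors had 90.2, 88.8, 89.0, 87.7, 90.8, 90.9 and 89.7. These were above the ribosomal median in both Sox2-positive libraries and below it in the others, so high rank was shared with that list. Mitochondrial ribosomal proteins and proteasome subunits were below the ribosomal median in each library. For the ribosomal genes the mean of the replicates was 91.0 ± 1.93 in ectoderm and 87.5 ± 0.769 for the sorted cells (SD, n = 2 each).

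That difference did not hold at equal list length. When each list was reduced to its first 38973 peaks by p-value, the length of the shortest, the ribosomal medians were 84.1 and 86.5 in ectoderm, 86.9 and 86.9 for the sorted cells, 87.1 in lower incisor, 86.6 in lower molar and 86.9 in upper molar. Ectoderm was then 85.3 ± 1.72 and Sox2-positive cells 86.9 ± 0.00997 (SD, n = 2 each). The order was the reverse of that in the full lists, but the difference was smaller than the ectoderm spread. Over all genes the same reduction gave medians of 76.1 and 79.2 in ectoderm, 81.1 and 81.1 for the sorted cells, 81.0 in lower incisor and 78.8 in each molar. Ectoderm replicate 1, the longest list, had the lowest value for both sets of genes.

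The deposited −log10 p differed between libraries at ribosomal and other peaks alike. Its median over ribosomal gene-end peaks was 7.96 and 7.28 in ectoderm, 6.23 and 6.27 for the sorted cells, 7.25 in lower incisor, 7.42 in lower molar and 7.46 in upper molar. Over all gene-end peaks it was 7.06, 6.51, 5.69, 5.70, 6.43, 6.51 and 6.51 in the same order, and over whole lists 4.67, 4.58, 4.23, 4.20, 4.33, 4.44 and 4.45. The Sox2-positive libraries were thus lowest on all 3 measures, and the ribosomal genes moved with the rest of the list. The group means were 7.62 ± 0.477 in ectoderm and 6.25 ± 0.0279 for the sorted cells (SD, n = 2 each), and since nothing normalised the scale between libraries this is a difference between the lists.

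Most ribosomal peaks came early in each list. Among the first 10000 peaks, 49 and 56 of the 80 genes were reached in ectoderm, 63 and 58 for the sorted cells, 54 in lower incisor, 52 in lower molar and 50 in upper molar. The share of all genes reached by then was 29.1% and 32.9% in ectoderm, 32.5% and 32.4% for the sorted cells, 30.9% in lower incisor, 29.3% in lower molar and 29.4% in upper molar. The first 500 peaks reached 2 to 4 of the 80 genes (2.5% to 5.0%), against 2.26% to 2.47% of all genes. The first 20000 reached 66 to 71 (82.5% to 88.8%), against 41.9% to 47.0% of all genes.

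**Figure D2:**
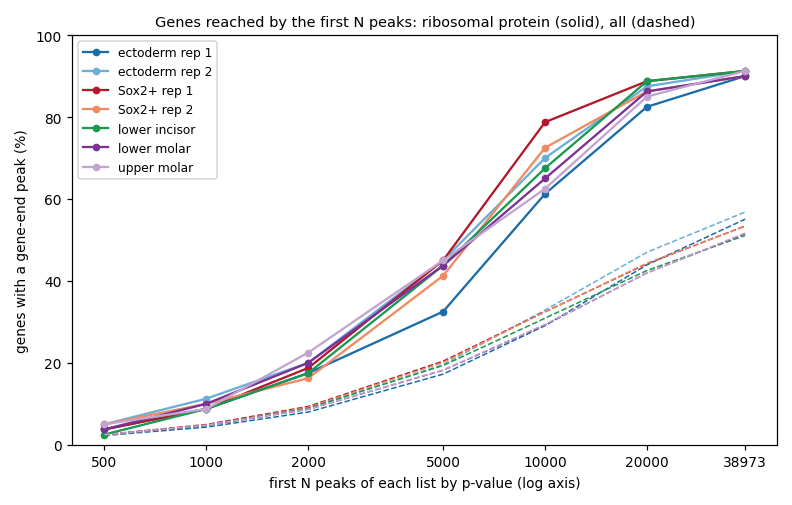
Share of genes (vertical axis, percent) with a gene-end peak among the first N peaks of each list by p-value (horizontal log axis), solid for the 80 ribosomal protein genes and dashed for all protein-coding genes, one colour per library. Solid lines cover 61.2% to 78.8% at 10000 peaks, and dashed lines 29.1% to 32.9%.

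Percentiles spread widely between ribosomal genes, and most genes kept their place from library to library. Rpl37, a zinc-finger protein of the large subunit, led with percentiles of 99.7 and 99.6 in ectoderm, 99.4 and 99.4 for the sorted cells, 99.7 in lower incisor, 99.7 in lower molar and 99.6 in upper molar. Its libraries were nearly alike. Card6 also has an end within 1 kb of the Rpl37 start, so this peak cannot be assigned to Rpl37 alone. Next came Rps29, at 98.8 to 99.3, Rps19, the gene most often mutated in Diamond-Blackfan anaemia, at 98.1 to 99.6, Rpl13a, which hosts several small nucleolar RNAs, at 97.9 to 99.5, and Rps21, at 97.9 to 99.7.

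At the other end stood Rps4x, the X-linked copy of a small-subunit protein. Its percentiles were 62.0 and 50.8 in ectoderm, 56.6 and 32.9 for the sorted cells, 46.5 in lower incisor, 63.1 in lower molar and 49.95 in upper molar. Its peak was also narrow, 439 to 725 bp, and the replicate ranges of ectoderm and Sox2-positive cells overlapped. The 4 X-linked genes did not share this: Rpl10 had percentiles of 86.6 to 96.9, Rpl36a of 88.2 to 95.2 and Rpl39 of 73.1 to 91.8. Rpl35a, another Diamond-Blackfan gene, had 58.5 to 83.1 with both extremes for the sorted cells, Rps15a had 54.1 to 76.9 with both extremes there too, and Rpl32 had 42.3 in Sox2-positive replicate 2 and 71.1 to 79.3 in the other 6 libraries.

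For some genes the strongest gene-end peak belonged to a neighbour's start. Of the 53 genes with a start entry and a gene-end peak in all 7 libraries, 47 had that peak at their own start and 6 (Rpl18, Rpl19, Rpl3l, Rpl4, Rpl41, Rps18) had it elsewhere, nearest the start of another gene. Rpl4, which lines the peptide tunnel, had gene-end percentiles of 88.6 to 96.1 from a summit 8 to 244 bp from the start of Snapc5. Within 1 kb of its own start it had a peak at the 54.7 and 73.7 percentile in ectoderm, 73.0 and 7.1 for the sorted cells, 50.2 in lower incisor, 54.0 in lower molar and 54.4 in upper molar. The summit of that peak lay 475 to 523 bp from the start, except in lower molar, where it lay 52 bp away. Zwilch also has an end within 1 kb of this start, so the peak cannot be assigned to Rpl4 alone. By this peak Rpl4 was among the weakest, and Sox2-positive replicate 2 was far below replicate 1. Rpl19, whose gene-end peak lay 15 to 364 bp from the start of Cacnb1, had start peaks at the 61.4 and 52.2 percentile in ectoderm, 37.8 and 56.8 for the sorted cells, 68.6 in lower incisor, 57.8 in lower molar and 56.5 in upper molar. Rpl18, with gene-end percentiles of 95.1 to 98.1 near the start of Sphk2, had 76.5 to 84.3 at its own start.

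Among peaks at annotated starts Rps4x (mean percentile over the 7 libraries 51.7 ± 10.4, SD), Rpl4 (52.4 ± 22.2) and Rpl19 (55.9 ± 9.47) were lowest, and their spreads overlap. Rpl37 (99.6 ± 0.141), Rps19 (99.0 ± 0.562), Rpl13a (98.9 ± 0.478) and Rps21 (98.8 ± 0.60) were highest, and the last 3 did not differ beyond their spread.

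By role, the P-stalk proteins, which recruit the elongation factors, all had gene-end peaks in every library. Rplp0 was the strongest of them at 95.7 to 98.8, and Rplp1 and Rplp2 had 83.5 to 93.3 and 83.8 to 92.4. Of the proteins that bind the 5S rRNA and, when unassembled, the p53 regulator Mdm2, Rpl5 had 67.6 to 85.0 and Rpl11 81.6 to 93.9. Rpl5 was the lower of the pair in each library. Rps27a, made as a fusion with ubiquitin, had 91.8 to 98.7.

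In the small subunit, Rps6, which is phosphorylated downstream of mTOR, had 88.1 to 96.2. Rps3, at the mRNA entry, had 83.0 to 94.4, and Rps14, lost in the human 5q deletion syndrome, 88.4 to 95.0. Rps6, Rps3 and Rps14 were each lowest in Sox2-positive replicate 2, the shortest list. At equal list length Rps14 had 84.8 and 87.6 in ectoderm and was higher for the sorted cells, at 93.2 and 88.4. Rps6 then had 92.0 and 91.4 against 91.3 and 88.1, and Rps3 had 84.7 and 86.5 against 92.2 and 83.0. Near the peptidyl transferase centre, Rpl3 had 82.9 to 90.3 and Rpl10, which completes the subunit, 86.6 to 96.9. Diamond-Blackfan anaemia genes followed no common level: beside Rps19 and Rpl35a, Rps26 had 90.8 to 94.4, Rps10 82.1 to 94.2, Rps24 78.0 to 86.5 and Rps7 68.8 to 84.1. Large-subunit and small-subunit genes had similar medians, 86.1 to 92.6 and 87.7 to 93.2 over the 7 libraries.

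The order of the ribosomal genes was shared between libraries. Over the 72 genes with a gene-end peak in all 7 libraries, Spearman's rho of their percentiles ranged from 0.796 (ectoderm replicate 1 and Sox2-positive replicate 1) to 0.982 (the molars). Ectoderm replicates gave 0.905 and Sox2-positive replicates 0.811, which was lower than the 0.940 between Sox2-positive replicate 2 and whole lower incisor. Each pair compares the same loci, so sequence and neighbouring genes are shared by the points, and these values carry no test.

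Ribosomal peaks were wide. Their median width was 1061 and 1371 bp in ectoderm, 1107 and 996 bp for the sorted cells, 1185 bp in lower incisor, 1232 bp in lower molar and 1236 bp in upper molar. That was 1.80 to 2.53 times the median of each whole list (487 to 646 bp). It was close to the median of all gene-end peaks, 1125 and 1286 bp in ectoderm, 988 and 955 bp for the sorted cells, 1071 bp in lower incisor, 1084 bp in lower molar and 1091 bp in upper molar, so the width over the list is that of gene ends in general. The replicates gave 1216 ± 219 bp in ectoderm and 1051 ± 78.8 bp for the sorted cells (SD, n = 2 each), a difference smaller than the ectoderm spread.

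Among genes with a gene-end peak in all 7 libraries, the widest peaks were those of Rpl10a (1843 to 4277 bp, the latter in lower molar), Rpl7 (2165 to 2949 bp) and Rpl41 (1176 to 2570 bp). The narrowest by median in the same set were Rps26, Rps4x and Rps28, and Rps4x was also the lowest in rank. Rps26 had 494 and 495 bp in ectoderm, 304 and 455 bp for the sorted cells, 966 bp in lower incisor, 479 bp in lower molar and 1502 bp in upper molar, at percentiles of 90.8 or more throughout. Rps28 had 687 to 1009 bp at percentiles of 77.5 to 86.3.

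**Figure D3:**
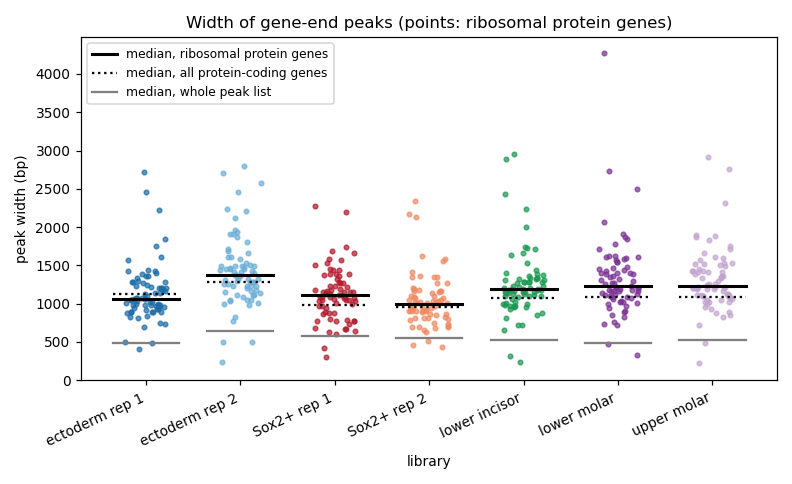
Width in bp of the gene-end peak of each ribosomal protein gene (points) by library, with medians for these genes (solid bar), for all protein-coding genes (dotted) and for the whole list (grey). The solid bars run from 996 to 1371 bp and the grey ones from 487 to 646 bp; the highest point is Rpl10a in lower molar at 4277 bp.

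At the starts, the median summit lay just upstream, as it did over all genes. The median distance from the annotated start was −59 and −50 bp in ectoderm, −36 and −59 bp for the sorted cells, −59 bp in lower incisor, −45 bp in lower molar and −46 bp in upper molar, where negative means upstream. The group means were −54.5 ± 6.36 bp in ectoderm and −47.5 ± 16.3 bp for the sorted cells (SD, n = 2 each), a difference within the Sox2-positive spread. Within 100 bp of the start lay 33 of 56 and 35 of 55 summits in ectoderm, 42 and 39 of 56 for the sorted cells, 36 of 55 in lower incisor and 39 of 55 in each molar. Over all genes with a start peak the medians were −43 to −33 bp, and 54.0% to 60.4% of summits lay within 100 bp. In ectoderm replicate 1 the ribosomal share, 58.9%, was near the 54.1% of all genes.

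Some genes kept their summit within a few bases in every library, and others did not. Rpl13a had it at −265 bp in all 7 libraries and Rpl9, a protein near the base of the stalk, at 18 bp in all 7. Rps25, used by viral internal ribosome entry sites, had it between −357 and −366 bp, and Rpl37 between −41 and −50 bp, beside the ETS core shown above. Rps2 had it at −125 and −117 bp in ectoderm and at −65 or −66 bp in the 5 postnatal libraries, so the ectoderm summits lay next to the ETS core of the window shown above and the postnatal ones next to its SP-type match. Rps15a had it at −165 bp in both ectoderm libraries, at −28 and 196 bp for the sorted cells and at 197 to 230 bp in whole teeth.

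**Figure D4:**
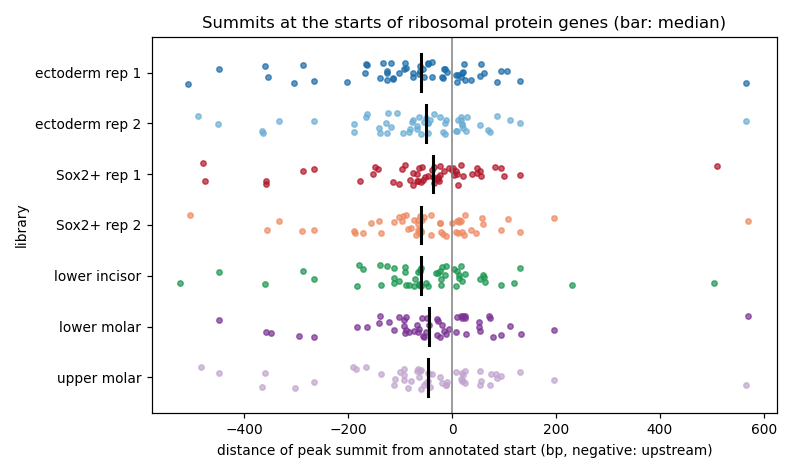
Distance in bp of each start peak's summit from the annotated start of its ribosomal protein gene (horizontal axis, negative upstream) by library, with the median as a black bar. Medians lie between −59 and −36 bp; the points at 505 to 570 bp are Rpl38.

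Of the 56 genes with a start peak, 50 had their own start nearest the summit, among listed starts, in every library with the peak. Neighbours without a listed start were not compared, so the 50 is an upper count. Nkiras1, Trappc4 and Card6 have an end within 1 kb of the starts of Rpl15, Rps25 and Rpl37 in that order, but gave no nearest start. For 4 the start of a neighbour was nearer in all 7 libraries: Lrsam1 for Rpl12, Med22 for Rpl7a, Rab13 for Rps27 and Ndufa7 for Rps28. Rps27 had summits 67 to 96 bp from its own start and 0 to 29 bp from that of Rab13. Peaks of these pairs cannot be assigned to 1 of the genes. For Rps18 the start of Vps52 was nearer in 5 libraries, and for Rpl18 that of Sphk2 in 1.

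The promoters differed from others in their letters. An ETS core was found in the 300-base windows of 29 of the 60 genes (48.3%), against 19.1% of 17491 promoters, and AAGATGG in 9 (15.0%), against 6.35%. The SP type was found in 34 (56.7%), against 46.3%, TATAAA in 7 (11.7%), against 13.3%, and the E-box in 5 (8.33%), against 7.91%. A run of at least 6 C or T touching the stretch from 5 bases before to 10 after the start was present in 32 (53.3%), against 23.9%. The median promoter held 21 CpG against 13 over all, at nearly the same G+C share, 56.8% against 56.3%.

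Rank was set beside these letters without a test. Among the 55 genes with a start peak in all 7 libraries, those with an ETS core (27) had a median start-peak percentile of 89.98 and those without (28) 85.7. For the SP type the medians were 90.8 (32 genes) and 82.7 (23 genes), and for AAGATGG 86.3 (9 genes) and 89.5 (46 genes). Over the 55 genes, Spearman's rho between G+C and mean percentile was 0.382, and between G+C and median width 0.571. For the number of CpG the values were lower, 0.198 and 0.257, as they were for the length of the C or T run, 0.120 and 0.281. The points share their libraries and lists, and the part of base composition in peak rank was not tested. Small nucleolar RNAs lay within 28 of the 80 genes (35.0%), against 1.70% of all protein-coding genes.

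Ectoderm and the sorted cells, the replicated groups, were compared for presence and for rank. A gene-end peak in both libraries of ectoderm but in none of the sorted cells was found for 0 of 80 ribosomal genes and for 6.02% of all genes. The reverse was found for 0 of 80 and for 0.786% of all. With lists of equal length, 71 genes had a peak in all 4 libraries. Of these 20 (28.2%) had a higher percentile in both Sox2-positive libraries than in both ectoderm libraries, against 31.2% of 10412 genes, and 8 (11.3%) a lower one, against 23.7%. The count of higher genes was near the background and is no result about ribosomal genes. The median difference, Sox2-positive minus ectoderm, was 2.49 points over the 71 genes and 0.733 over all.

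Among the 20 were 12 of 28 small-subunit genes and 8 of 43 large-subunit genes. The 8 lower ones were 2 small-subunit and 6 large-subunit genes. Over all genes the shares were 31.2% higher and 23.7% lower. Since the higher set as a whole was near the background, its split is no result about the subunits. Rps12, which is known from cell competition in the fly, had equal-length percentiles of 58.9 and 77.7 in ectoderm and 87.0 and 90.9 for the sorted cells. Rps24 had 62.4 and 71.3 against 83.5 and 80.01, Rps28 61.0 and 70.7 against 80.6 and 77.7, and Rps10 75.2 and 76.7 against 84.0 and 92.0. The groups did not overlap in any of these, but the ectoderm replicates of Rps12 were themselves far apart. The lower ones included Rpl29, with 82.8 and 85.1 in ectoderm against 78.8 and 74.9, and Rpl36, with 96.9 and 94.7 against 90.1 and 88.1. Rps27a had 96.6 and 98.3 against 95.1 and 91.8, and Rpl11 87.0 and 87.3 against 79.9 and 85.0. For 43 genes the groups overlapped, as for Rpl35a, with 22.9 and 65.5 in ectoderm and 81.5 and 58.5 for the sorted cells. The values of Rpl3l and Rps18, among the 20, and of Rpl18, among the 8, are those of a peak near a neighbour's start. The summits of Rpl12 and Rps28, also among the 20, were nearer a neighbour's start than their own. Genes without a start entry, and neighbours without a listed start, were not checked in this way. Rpl36 and Rps27a, among the 8, have no start entry. Lonp1 and Micos13 have an end within 1 kb of an end of Rpl36, and Clhc1 and Mtif2 of Rps27a, so these peaks cannot be assigned either.

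**Figure D5:**
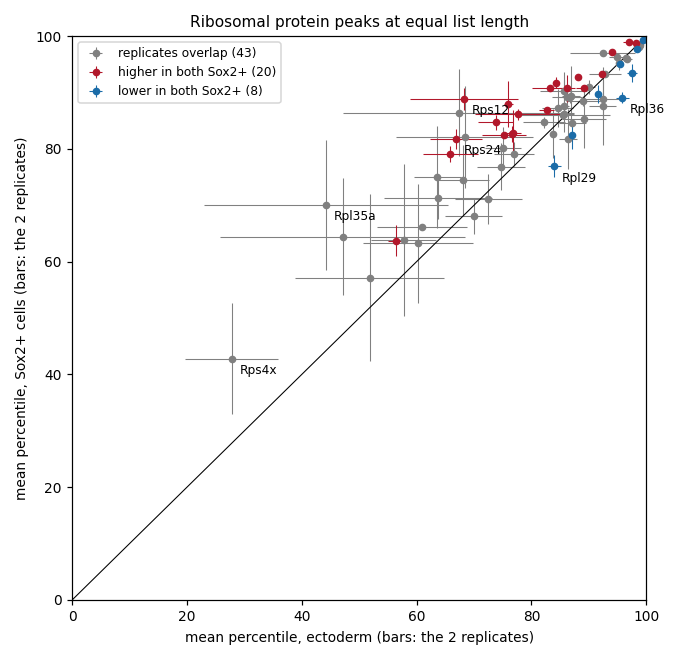
Mean percentile at equal list length in ectoderm (horizontal) and Sox2-positive cells (vertical) for 71 ribosomal protein genes, with bars from one replicate to the other and the line of equality. The 20 genes higher in both Sox2-positive libraries are red, the 8 lower ones blue and the 43 whose replicates overlap grey; Rps12 lies far above the line and Rpl29 below it.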

How the data were processed

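The files are 7 peak lists in narrowPeak form, 1 per library, with no read counts. Per the submitters' processing notes the tools were FastQC, Trimmomatic, Bowtie2, deepTools and Genrich and the build mm10, while versions and settings are not given in the sources used here. The deposited signal of a peak was at least 200.0 in every list, and the authors' deposited −log10 p was used for ranks within a list only. Genes came from RefSeq's GRCm38.p6 tables, of which 60 of the 80 genes matched the promoter table. Peaks on 21 placed chromosomes were assigned by summit within 1 kb of a gene end, or of an annotated start, with Python 3.11.15, pandas 2.3.3, numpy 2.4.6 and matplotlib 3.10.9, and the assignment was tested on simulated data with planted peaks. No test was run. Ties in p were ordered by signal. Genes named are those missing in a library, the 5 highest and 5 lowest by mean percentile, the 3 widest, 3 narrowest and 3 most variable, and role lists, of which a few genes are not reported here. Genes outside that rule (those with the clearest summit positions, neighbours or group values, and the marker genes) were chosen after their values were seen. The members and lists were chosen with earlier results of these data known. Alternatives changed the window, the gene position, the list length and strictness, the choice of peak, the gene set and the replicates.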

Additional observations from a re-analysis of the deposited data

How the results depend on the processing

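Under 15 alternative settings, 173 of 176 values of the counts stayed within 1.5 times the main count, and 207 of 225 values of the medians moved by less than 1 SD between replicates (for single libraries, the pooled SD of the 2 replicated groups). No value changed sign, but the order of ectoderm and the sorted cells in median percentile, 91.0 and 87.5 in the full lists, was the opposite at equal list length by p-value and by signal. By p-value the medians were 85.3 and 86.9, a difference smaller than the ectoderm spread. The count of genes in both ectoderm and neither Sox2-positive library went from 0 to 1 when any base of a peak could lie in the window (Rpl17) and in the strictest 50% of each list (Rpl19), and ranged from 0 to 1 with single replicates left out, the 1 being Rpl22 without Sox2-positive replicate 1. Median percentiles moved with annotated starts alone to 88.4 in ectoderm, 86.6 for the sorted cells and 90.5 in each molar. With equal lengths by p-value they were 85.3 in ectoderm, 87.1 in incisor, 86.6 in lower molar and 86.9 in upper molar, and by signal 85.3, 87.1, 86.6 and 87.5. In the strictest 50% they were 82.3 in ectoderm, 75.2 for the sorted cells, 84.1 in incisor, 85.1 in lower molar and 85.7 in upper molar, since weaker peaks no longer count below them. With the nearest peak standing for a gene the lower molar had 90.6. Equal lengths likewise took weaker peaks out of the longer lists, so that fewer counted below. Annotated starts alone kept only the 60 genes with an entry. The cause of the moves with annotated starts and with the nearest peak was not tested. Genes with a peak in every library used numbered 68 to 77 over settings that kept gene ends (72 in the main count). The 68 is with the X-linked genes left out of the set, and settings without a replicate asked for fewer libraries. The count was 76 with gene ends or annotated starts, an alternative chosen after seeing the data.

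No paired analysis was possible because the results come from no test and replicate numbers in the labels do not tie libraries of different groups. Depth was unknown, whole teeth had no replicates, and strand was given for 60 genes only.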

Other observations

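Ribosomal proteins whose symbols fall outside the naming rule were also found in every library, but at differing ranks. Rpsa, Fau, Rack1, Rpl22l1, Rpl36al and Rpl7l1 had gene-end peaks in 7 of 7 libraries, as did 48.8% of all protein-coding genes. Rpl36al had percentiles of 94.8 to 97.6. Rpl7l1 had 53.2 to 81.9, below the median of the genes inside the rule in each library.

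Annotated ribosomal protein pseudogenes, 318 in all, rarely had open ends: 20 and 11 of them in ectoderm, 7 and 5 for the sorted cells, 5 in lower incisor and 8 in each molar. The share, 1.57% to 6.29%, was near that of 10111 other pseudogenes, 2.45% to 5.80%. None of the peaks at ribosomal protein pseudogenes lay at the end of a protein-coding gene. How reads that match several copies were handled is not given in the sources used here.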
